A study of Mus musculus with 54 samples.

Results

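Imprinted genes are read mainly from the copy inherited from 1 parent, so a cell has a single working copy to lose. The 10 imprinted genes described here were Snrpn, Snurf, Nnat, Mest, Igf2, Grb10, Peg3, Peg10, Impact and Cdkn1c, of 20036 genes in the table, and all 10 passed the filter on low values that kept 14416 genes. They were chosen by name from expression values of these same libraries, for whether a loss or gain held at all 3 stages of a line. Their differences between lines are therefore given as a description, with no p-value. A further 80 imprinted genes were listed by domain, of which 68 were in the table and 60 were tested.

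Mouse embryonic stem cells (ESC) were turned into epiblast-like cells (EpiLC) and then into primordial germ cell-like cells (PGCLC), sampled on day 2. RNA was measured in 9 lines of strain C57BL/6 X 129/SvJ: WT, 4 lines with knockout names (Ovol1KO, TKO, Ovol2KO and Ovol3KO), and 4 lines labelled as overexpressing (Cdh1-Tg, Ovol2a/2b-Tg, Ovol2a-Tg and Ovol2b-Tg). Each line gave 2 libraries at each stage, 54 in all, and nothing in the sources states that the libraries of a group came from separate cultures or that a line is more than 1 clone. Ovol1, Ovol2 and Ovol3 are zinc finger transcription factors, and Cdh1 encodes E-cadherin. The sources used here do not give the promoter or the parental line of the transgenic lines and do not spell out TKO. Values are TPM, each gene's share of all transcripts in a library after correction for gene length. Differences come from limma on log2(TPM + 1). Being past the thresholds means a log2 fold change of at least 1 in either direction together with a p under 0.05 after Benjamini-Hochberg adjustment across the 14416 genes.

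The parental copies of an imprinted gene differ by a mark of DNA methylation laid down in the egg or sperm. It lies at a control region that often serves a whole cluster of genes. After fertilisation this mark is kept through rounds of DNA copying by the maintenance methyltransferase Dnmt1 with Uhrf1, and by the zinc finger proteins Zfp57 and Zfp445 with Trim28 at the control regions. Germ cells erase the mark and set it anew according to their own sex, and stem cells in culture are known to gain or lose imprints. Gene-level TPM shows neither which copy was read nor whether DNA was methylated or deleted.

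The promoter windows of the 3 genes with the deepest losses are shown, because each loss is a fall of that gene's own RNA. The windows run from 250 bases before to 50 bases after an annotated start (RefSeq, GRCm38.p6) and are written 5′ to 3′ in lower case. Capitals mark the hexamer TGCCGC, which Zfp57 binds when methylated, or its reverse complement GCGGCA. Snrpn and Snurf share 1 start, whose window is chr7:60005150-60005449 on the minus strand, the only 1 listed for Snurf and the most downstream of 4 for Snrpn. The Nnat window is chr2:157559828-157560127 on the plus strand, and the Grb10 window chr11:12037371-12037670 on the minus strand is the more upstream of 2 listed.
Snrpn and Snurf: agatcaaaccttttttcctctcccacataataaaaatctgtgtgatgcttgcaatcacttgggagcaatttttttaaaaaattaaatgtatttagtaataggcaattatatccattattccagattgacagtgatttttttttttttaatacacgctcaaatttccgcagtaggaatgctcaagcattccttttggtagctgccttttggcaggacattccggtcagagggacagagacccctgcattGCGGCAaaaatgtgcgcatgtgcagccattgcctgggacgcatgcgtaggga
Nnat: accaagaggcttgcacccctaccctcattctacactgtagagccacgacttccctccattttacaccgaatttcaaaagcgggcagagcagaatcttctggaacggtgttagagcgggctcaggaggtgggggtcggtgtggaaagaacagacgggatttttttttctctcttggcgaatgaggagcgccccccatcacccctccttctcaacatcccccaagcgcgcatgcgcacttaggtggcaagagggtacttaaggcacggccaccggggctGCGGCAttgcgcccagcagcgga
Grb10: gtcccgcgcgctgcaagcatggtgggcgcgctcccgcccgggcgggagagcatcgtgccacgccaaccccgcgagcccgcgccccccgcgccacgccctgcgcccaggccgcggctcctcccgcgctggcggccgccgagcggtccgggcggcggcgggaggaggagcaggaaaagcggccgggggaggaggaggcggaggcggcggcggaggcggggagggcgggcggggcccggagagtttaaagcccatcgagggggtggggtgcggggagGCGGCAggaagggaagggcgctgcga
Each of the 3 windows held 1 match to the hexamer, and 3809 of 32817 distinct promoter windows held at least 1 (11.6%). The windows of Snrpn and Grb10 that are not shown held 0 matches. Members without such a loss also held matches, up to 2 in a Mest window and 1 in an Igf2 window, while the Peg3 window held 0. The Grb10 window held 45 CpG, a number reached by 1.93% of windows. The Nnat window held 17 CpG, reached by 31.4%, and the Snrpn window held 7, which is the median of all windows. No window was listed for Peg10 or Cdkn1c, and Impact was left out of this search.

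Recovered read totals were 2.16 to 26.7 M per library (median 8.65 M). The cell type tag disagreed with the title in 8 libraries (PGCLC of Ovol2a-Tg and all Cdh1-Tg libraries). Groups follow the titles, and the naive marker sums of the libraries titled ESC (902 to 1396 TPM over 6 genes) lay above those of all other libraries (43.1 to 503 TPM). The EpiLC marker sums of the libraries titled EpiLC (1123 to 2447 TPM over 4 genes) lay above those titled ESC (74.9 to 336 TPM) or PGCLC (75.7 to 386 TPM). These sums check the stage and not the line. Ovol2 was high in the 3 Ovol2 transgenic lines, with means of 95.9 to 4135 TPM against 7.81 to 11.1 TPM in WT. Ovol2 was not past the thresholds below WT at any stage of the line labelled Ovol2KO (14.7, 34.1 and 5.71 TPM as ESC, EpiLC and PGCLC), nor was Ovol1 or Ovol3 in the lines labelled for them. Cdh1 was 585, 695 and 563 TPM as ESC, EpiLC and PGCLC of Cdh1-Tg against 440, 456 and 316 TPM in WT, higher by 0.41, 0.61 and 0.83 on the log2 scale (adjusted p at most 0.0014) and short of the fold threshold at each stage. A partial deletion need not lower the TPM of a whole gene, and the names of these lines are taken from the labels and not from these values. By limma, Ovol2 was past the thresholds below WT in PGCLC of TKO (-2.20 ± 0.27, adjusted p = 2.1e-05) and of Cdh1-Tg (-2.01 ± 0.27, adjusted p = 4.7e-05). It was also below in ESC of Cdh1-Tg (-1.66 ± 0.30, adjusted p = 0.00094). In EpiLC of Ovol2KO it was past them upward (1.55 ± 0.12, adjusted p = 3.9e-07). The Ovol2b-Tg EpiLC pair differed by little more than sampling noise, with a chi-square of 1.05 per degree of freedom against 1.31 or more in the other pairs, and was kept as 2 libraries.

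Snrpn and Snurf were lost in the line labelled Ovol2KO at every stage and in no other line. Snrpn encodes SmN, a protein of the splicing machinery, and Snurf is a short reading frame upstream of it on the same paternally expressed transcript. Recovered reads of both genes differed by at most 17 in any library, and Snurf TPM was 1.20 to 1.21 times Snrpn TPM in the 48 libraries with over 100 Snrpn reads, so they are in effect 1 measurement. In WT, Snrpn stood at 65.2 and 71.5 TPM in ESC, 233 and 247 TPM in EpiLC, and 143 and 162 TPM in PGCLC. In the Ovol2KO-labelled line it was 0 and 0 TPM in ESC, 0.230 and 0.927 TPM in EpiLC, and 0 and 0.358 TPM in PGCLC. Both libraries lay far below both WT libraries at each stage.

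The log2 fold changes of Snrpn against WT in the Ovol2KO-labelled line were -6.11 ± 0.11 (SE) in ESC, -7.29 ± 0.13 in EpiLC and -7.04 ± 0.13 in PGCLC. Adding 1 to the TPM limits these values. With 0 reads in the ESC pair against 673 reads in WT, Snrpn was 273-fold lower by TPM at a floor of 3 reads over the pair. The lower end of the 95% exact Poisson interval was 222-fold. The EpiLC pair held 7 reads, a ratio of 605 (95% exact Poisson interval 294 to 1505), and the PGCLC pair held 1 read, a ratio of 2092 (376 to 82642). These limits cover only the counting error of the Ovol2KO-labelled pairs, with the WT value held fixed. In the other 8 lines Snrpn ran from 49.0 to 112 TPM in ESC, 193 to 329 TPM in EpiLC and 89.1 to 176 TPM in PGCLC.

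TKO kept Snrpn, with 98.9 and 97.2 TPM in ESC, 259 and 262 TPM in EpiLC, and 89.1 and 98.0 TPM in PGCLC. These values do not overlap the Ovol2KO-labelled line at any stage. The sources used here do not say whether TKO carries the change that names the Ovol2KO line. Against WT, Snrpn in TKO differed by log2 fold changes of 0.52 ± 0.11, 0.12 ± 0.13 and -0.70 ± 0.13 at the 3 stages.

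**Figure D1:**
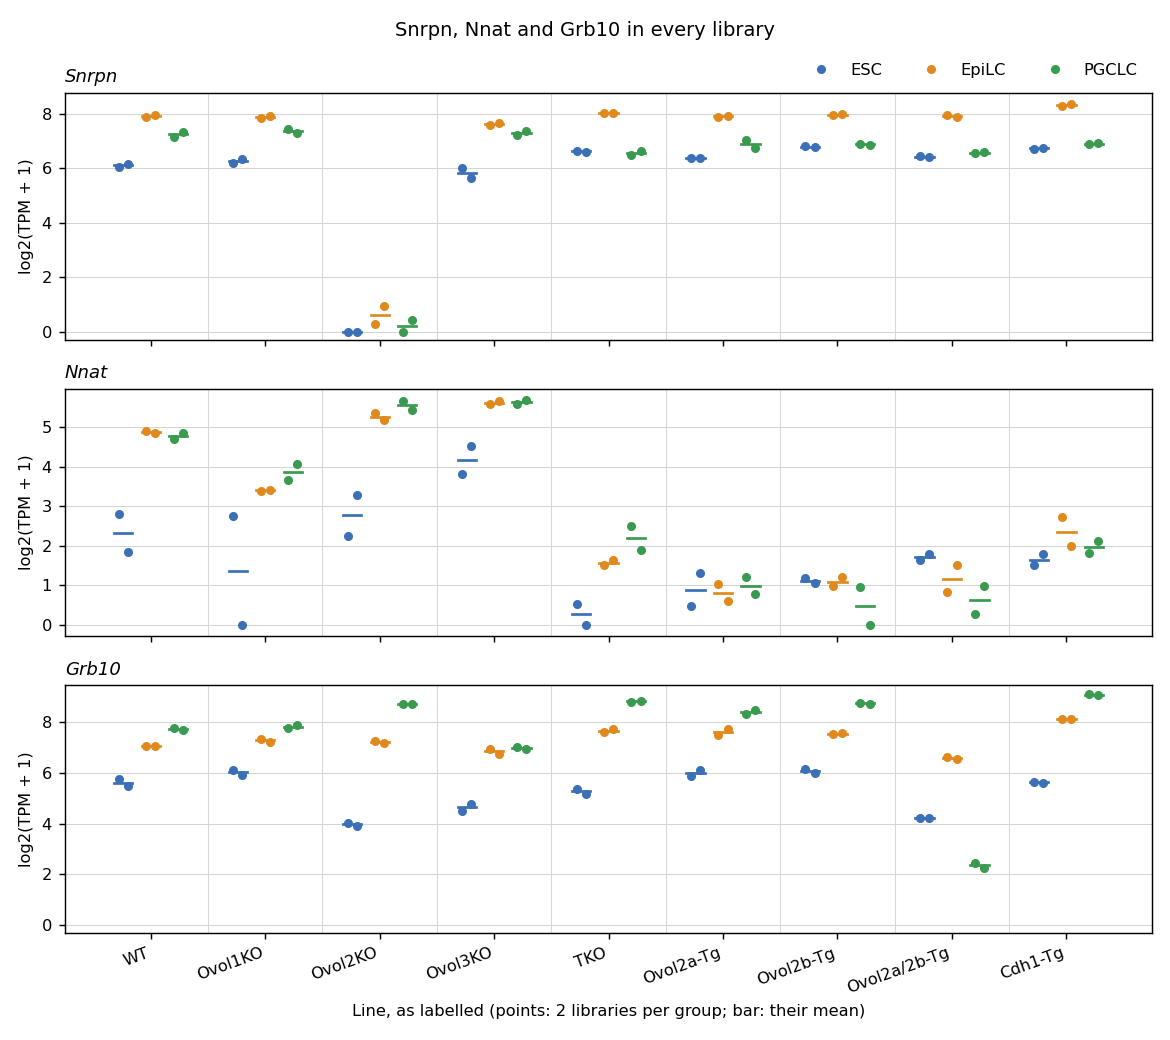
Expression of Snrpn, Nnat and Grb10, as log2(TPM + 1) on the vertical axis, in the 9 lines on the horizontal axis, with 1 point per library, a bar at the mean and a colour for each stage. Snrpn is at or near 0 in the Ovol2KO-labelled line at all stages, Nnat as EpiLC and PGCLC is lowest in TKO and the transgenic lines, and Grb10 is low in Ovol2a/2b-Tg as PGCLC (4.54 and 3.80 TPM).

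Snrpn lies in the Prader-Willi domain, where paternally expressed genes share 1 control region at the Snrpn start and Ube3a, a ubiquitin ligase, is read from the other copy in neurons. The gene spans chromosome 7 from 59982495 to 60450177 (mm10). No other tested gene of the domain was lost to a like extent, though several were lower. Ndn (necdin) gave log2 fold changes of -0.72 ± 0.35, 0.02 ± 0.10 and 0.24 ± 0.17 in the Ovol2KO-labelled line, with adjusted p of 0.20, 0.93 and 0.32. Ube3a gave -0.25 to -0.10. Magel2 and Mkrn3 were past the thresholds at no stage, but in PGCLC both libraries lay below WT, at means of 2.44 against 5.15 TPM (-0.84 ± 0.28, adjusted p = 0.035) and 2.17 against 4.44 TPM (-0.78 ± 0.22, adjusted p = 0.014). Peg12 in ESC was 0.0528 against 0.738 TPM, too low for a fold of 1 on this scale. Peg12 fell in PGCLC, from 8.24 to 2.11 TPM, by 1.62 ± 0.31 on the log2 scale (adjusted p = 0.0012), and Atp10a, a lipid flippase at the edge of the domain, fell in ESC by 1.25 ± 0.23 (adjusted p = 0.0020). Over the 8 tested genes within 2.5 Mb of Snrpn, those were 2 of 24 tests, and none was called at all 3 stages. Of all tested genes, 3.36%, 1.42% and 8.18% were called in ESC, EpiLC and PGCLC of this line. Only 0.271% were called in 1 direction at all 3, so nothing is read from these counts. That window was chosen after the values were seen.

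Nnat was the member held low in TKO, and it was low as EpiLC and PGCLC in all 4 transgenic lines and, to a lesser extent, in Ovol1KO. Nnat encodes neuronatin, a small membrane protein of developing brain, and sits in an intron of Blcap, whose main transcript is not imprinted in most tissues. In WT it was 5.97 and 2.60 TPM in ESC, 28.8 and 27.7 TPM in EpiLC, and 24.9 and 28.0 TPM in PGCLC. In TKO it was 0.445 and 0 TPM in ESC, 1.85 and 2.09 TPM in EpiLC, and 4.64 and 2.74 TPM in PGCLC. No TKO library reached a WT library of its stage, but WT ESC held only 27 Nnat reads over the pair and TKO ESC 5. The log2 fold changes were -2.06 ± 0.64, -3.30 ± 0.23 and -2.58 ± 0.31.

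Against the Ovol2KO-labelled line, Nnat in TKO differed by -2.51 ± 0.64, -3.70 ± 0.23 and -3.35 ± 0.31, since that line kept Nnat at 39.8 and 35.5 TPM in EpiLC and 50.1 and 42.1 TPM in PGCLC. The ESC value in TKO was the least certain. Leaving out TKO replicate 1, TKO replicate 2 or WT replicate 1 took it from past the thresholds, at log2 fold changes of -2.32, -1.79 and -1.58.

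As EpiLC, Nnat was 1.05 and 0.505 TPM in Ovol2a-Tg, 0.975 and 1.30 TPM in Ovol2b-Tg, 0.769 and 1.84 TPM in Ovol2a/2b-Tg, and 5.64 and 2.94 TPM in Cdh1-Tg. As PGCLC, it was 1.30 and 0.705 TPM, 0.927 and 0 TPM, 0.197 and 0.979 TPM, and 2.51 and 3.34 TPM in the same order. All 20 EpiLC and PGCLC libraries of TKO and the transgenic lines lay below all 12 of WT, Ovol2KO and Ovol3KO. Their log2 fold changes against WT ran from -4.30 to -2.51 in the transgenic lines. In ESC the transgenic lines were also below WT (0.383 to 2.48 TPM against 2.60 and 5.97 TPM), with changes of -1.44 to -0.60 that were not past the thresholds. So by the thresholds a loss at all 3 stages was met in TKO alone, while the gap between groups ran the same way in 5 lines.

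Ovol1KO was in between. It held 9.53 and 9.72 TPM in EpiLC, past the thresholds below WT (-1.46 ± 0.23), and 11.7 and 15.9 TPM in PGCLC, below both WT libraries but not past the thresholds (-0.91 ± 0.31). In ESC it held 5.68 and 0 TPM and overlapped WT. Ovol3KO was above WT, at 47.0 and 49.4 TPM and at 47.5 and 50.5 TPM. Blcap, which spans the gene, gave log2 fold changes of -0.56 to 0.29 over the 24 comparisons of a line with WT and passed the thresholds in none. Over the 58 tested genes within 2.5 Mb of Nnat on chromosome 2, none was called at all 3 stages of TKO or of a transgenic line. Of all tested genes, only 0.222% to 0.645% were in these lines, so nothing is read from that count.

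**Figure D2:**
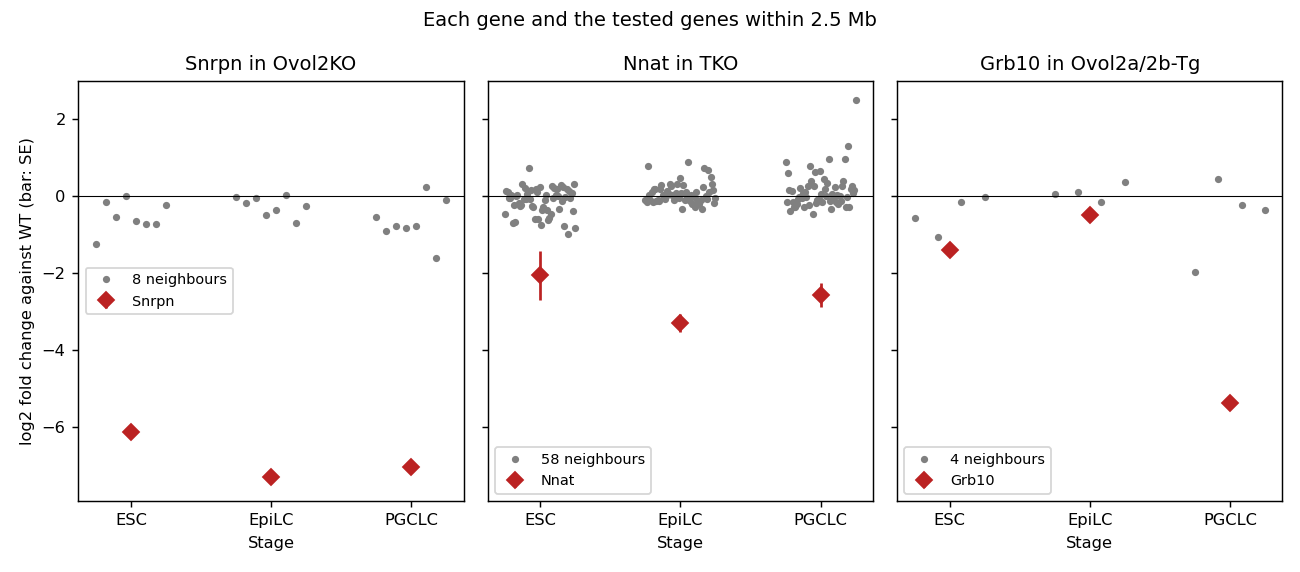
Log2 fold change against WT on the vertical axis at the 3 stages on the horizontal axis, for Snrpn in Ovol2KO, Nnat in TKO and Grb10 in Ovol2a/2b-Tg (diamonds, bars are SE) and for the tested genes within 2.5 Mb (grey points: 8, 58 and 4 genes). At -6.11 to -7.29, Snrpn lies well below its neighbours at every stage, and Grb10 falls away from its neighbours in PGCLC at -5.37.

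Grb10 was lost in 1 line at 1 stage, PGCLC of Ovol2a/2b-Tg. Grb10 encodes an adaptor that binds the insulin and IGF1 receptors and restrains growth. It is maternally expressed outside neurons. WT held 53.5 and 43.9 TPM in ESC, 135 and 134 TPM in EpiLC and 216 and 208 TPM in PGCLC. Ovol2a/2b-Tg held 17.7 and 18 TPM in ESC, 98.0 and 93.1 TPM in EpiLC, and then 4.54 and 3.80 TPM in PGCLC. The log2 fold changes against WT were -1.39 ± 0.13, -0.49 ± 0.08 and -5.37 ± 0.07, so the libraries were below WT at every stage but past the thresholds only at the first and last. In reads, the PGCLC pair held 164 against 6061 in WT, a TPM ratio of 50.7 (43.5 to 59.5 by that pair's counting error, with WT held fixed).

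In the other 8 lines Grb10 in PGCLC ran from 122 to 556 TPM, and in Ovol2a-Tg and Ovol2b-Tg it was 321 and 356 TPM and 433 and 426 TPM. Grb10 lies on chromosome 11 from 11930499 to 12037428 (mm10). Of the 4 tested genes within 2.5 Mb, Cobl, an actin-binding gene next to it, fell by 1.96 ± 0.24 in those PGCLC (adjusted p = 1.7e-05). Ddc, which makes dopamine and serotonin and is imprinted with Grb10 in heart, was at 0.45 ± 0.30 there and fell by 1.07 ± 0.18 in ESC (adjusted p = 0.00065). Cobl also fell in PGCLC of Ovol2KO, TKO, Ovol2a-Tg, Ovol2b-Tg and Cdh1-Tg, by 1.26 to 2.60 (adjusted p at most 0.0020), and in those lines Grb10 was above WT.

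In the line labelled Ovol2KO, Grb10 went from 15.2 and 14.2 TPM in ESC, below WT by 1.66 ± 0.13 on the log2 scale, to 427 and 426 TPM in PGCLC, above WT by 1.0 ± 0.07. Grb10 was also past the thresholds upward in PGCLC of TKO (1.11 ± 0.07), Ovol2b-Tg (1.01 ± 0.07) and Cdh1-Tg (1.37 ± 0.07). In Ovol3KO, both Grb10 libraries lay below both WT libraries at every stage without passing the thresholds. They held 21.8 to 26.7 TPM in ESC, 106 to 124 TPM in EpiLC and 122 to 129 TPM in PGCLC.

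Counted by the thresholds, a change in 1 direction at all 3 stages was met by 2 of 10 members in Ovol2KO (Snrpn and Snurf, lower), where 0.271% of all tested genes met it, and by 1 in TKO (Nnat, lower), where 0.298% did. It was met by 0 members in Ovol1KO (0.0416% of all genes), Ovol3KO (0.0486%), Cdh1-Tg (0.645%), Ovol2a/2b-Tg (0.562%), Ovol2b-Tg (0.257%) and Ovol2a-Tg (0.222%). Between TKO and Ovol2KO it was met by 3 (Snrpn and Snurf higher, Nnat lower in TKO), against 0.0555% of all genes. By these thresholds, no member was held higher than WT in any line. Because these genes were chosen for such losses, nothing is read from the shares. Snrpn and Snurf, in effect 1 measurement, enter all counts and medians of members as 2 genes.

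Stage by stage, members past the thresholds in Ovol1KO were 0 in ESC, 2 in EpiLC and 0 in PGCLC of 10, where 0.541%, 0.486% and 0.666% of all tested genes were called. Ovol2KO had 3, 2 and 5, against 3.36%, 1.42% and 8.18%. Ovol3KO had 1, 1 and 4, against 1.85%, 2.85% and 12.8%, and TKO had 4, 2 and 4, against 4.08%, 2.3% and 10.5%. Among the transgenic lines, Ovol2a-Tg had 1, 3 and 3 (4.95%, 2.06% and 3.43% of all genes) and Ovol2b-Tg had 3, 3 and 4 (5.56%, 1.67% and 8.3%). Ovol2a/2b-Tg had 2, 3 and 5 (4.31%, 4.5% and 7.62%) and Cdh1-Tg had 4, 4 and 4 (6.4%, 6.38% and 9.86%). TKO against Ovol2KO had 5, 4 and 5 (2.94%, 0.534% and 0.985%). The comparisons of a stage share the same WT libraries.

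**Figure D3:**
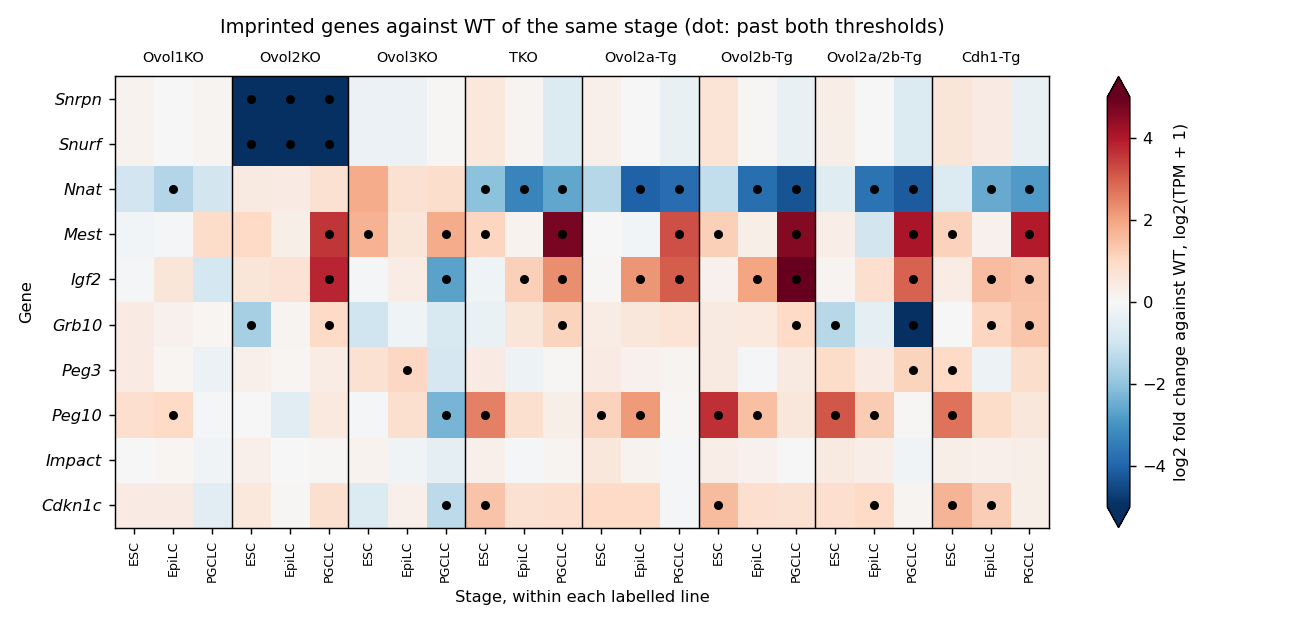
Log2 fold change against WT of the same stage (colour, on the log2(TPM + 1) scale, limited to 5 in either direction) for the 10 genes in rows and the 3 stages of each labelled line in columns. A dot marks a value past both thresholds. Rows of 3 dots in 1 colour are seen for Snrpn and Snurf in Ovol2KO and for Nnat in TKO.

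Along the WT path, values of which were also in view when these genes were chosen, 6 of 10 members were past the thresholds upward from ESC to EpiLC and 0 downward, beside 20.6% of all tested genes called in either direction. These values too are a description, and nothing is read from the share. The median log2 fold change was 1.63 over the members, 0.21 over the 60 other imprinted genes and -0.01 over all genes. Mest, a paternally expressed hydrolase-like gene of mesoderm, had the largest log2 fold change of the members, from 20 and 16.8 TPM to 151 and 161 TPM (3.02 ± 0.17). Nnat gave 2.55 ± 0.48. Cdkn1c, which encodes the cell cycle inhibitor p57, gave 1.90 ± 0.29. Snrpn gave 1.80 ± 0.13, as did Snurf, and Grb10 gave 1.45 ± 0.10.

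From EpiLC to day 2 PGCLC in WT, 5 members were past the thresholds upward and 1 downward, beside 21.1% of all tested genes called. Peg10, a gene derived from a retrotransposon and needed for the placenta, went from 10.4 and 12.9 TPM to 752 and 601 TPM (5.74 ± 0.21). Igf2, the growth factor, went from 0.688 and 1.25 TPM to 17.8 and 12.0 TPM (3.0 ± 0.27). Cdkn1c gave 2.35 ± 0.29. Peg3, a zinc finger gene, gave 2.14 ± 0.22, and Impact, an inhibitor of the stress kinase GCN2, gave 1.73 ± 0.10. Mest was back at 20.8 and 20.6 TPM (-2.85 ± 0.17). The members' median was 1.19, that of the other imprinted genes 0.40 and that of all genes 0.15.

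**Figure D4:**
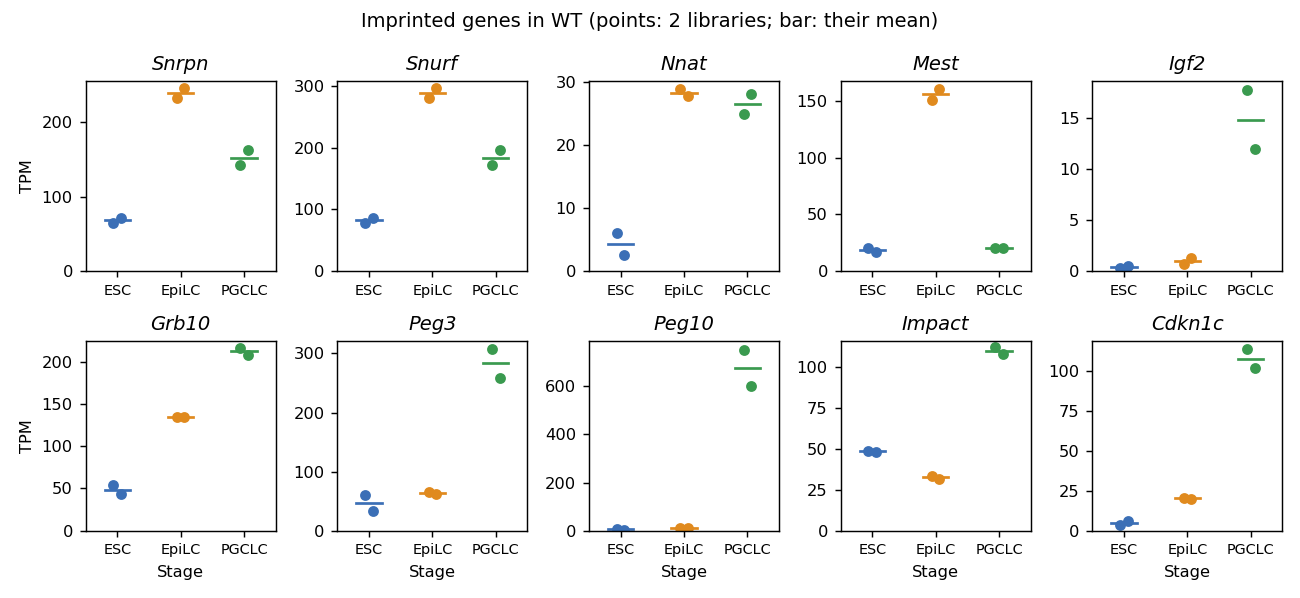
TPM of the 10 genes in WT on the vertical axes, each starting at 0, at the 3 stages on the horizontal axes, with 1 point per library and a bar at the mean of 2. Mest peaks in EpiLC (151 and 161 TPM), while Peg10, Igf2, Cdkn1c, Peg3 and Impact are highest in PGCLC.

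Other imprinted genes also moved along the WT path: 10 rose and 12 fell of 60 from ESC to EpiLC, and 17 rose and 9 fell from EpiLC to PGCLC. In the first step the largest rises were those of Dcn, which encodes the matrix protein decorin (3.52 ± 0.17), Gatm, of creatine synthesis (2.07 ± 0.26), and Calcr, the calcitonin receptor (1.84 ± 0.18). The largest falls were Cobl (-4.54 ± 0.20), the zinc finger gene Plagl1 (-4.24 ± 0.20) and Qpct, a glutaminyl cyclase (-2.54 ± 0.31). In the second step Plagl1 rose by 3.22 ± 0.20, Phlda2, which limits placental growth, by 2.36 ± 0.18 and Sgce, the epsilon-sarcoglycan that shares a promoter region with Peg10, by 2.33 ± 0.22. Dcn (-3.39 ± 0.17), the signalling adaptor Gab1 (-2.22 ± 0.10) and Ampd3, an AMP deaminase (-1.86 ± 0.20), fell most. The adjusted p was at most 1.4e-08 for the first step's 6 and 3.5e-10 for the second step's (limma).

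Mest and Igf2 were high in PGCLC of most lines. WT PGCLC held 20.8 and 20.6 TPM of Mest and 17.8 and 12.0 TPM of Igf2. Mest was 250 and 269 TPM in Ovol2KO, 584 and 577 TPM in TKO, 138 and 294 TPM in Ovol2a-Tg, 561 and 474 TPM in Ovol2b-Tg, 371 and 358 TPM in Ovol2a/2b-Tg and 341 and 338 TPM in Cdh1-Tg. All of these libraries were above all WT PGCLC, with log2 fold changes of 3.22 to 4.75. Ovol3KO, at 69.6 and 87.8 TPM, was above WT by 1.87 ± 0.24, and Ovol1KO, at 39.7 and 40.3 TPM, by 0.92 ± 0.24. In these 6 lines Mest as EpiLC was 197 and 185, 173 and 179, 137 and 149, 194 and 191, 83.5 and 82.4, and 175 and 187 TPM. Thus, unlike in WT, both PGCLC libraries lay above both EpiLC libraries in 5 of them, and in Ovol2a-Tg the stages overlapped.

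Igf2 in PGCLC was 204 and 232 TPM in Ovol2KO, 73.5 and 81.6 TPM in TKO, 85.1 and 190 TPM in Ovol2a-Tg, 636 and 484 TPM in Ovol2b-Tg, 125 and 113 TPM in Ovol2a/2b-Tg and 43.7 and 39.4 TPM in Cdh1-Tg. The log2 fold changes were 1.44 to 5.15, and none of these libraries overlapped WT. Ovol3KO went the other way, with 1.39 and 1.54 TPM (-2.66 ± 0.29), and Ovol1KO held 6.07 and 8.98 TPM (-0.89 ± 0.29). In ESC, Igf2 was 0.0995 to 1.39 TPM in every line. In EpiLC it was past the thresholds above WT in TKO, Ovol2a-Tg, Ovol2b-Tg and Cdh1-Tg (1.21 to 2.22), at levels of 3.50 to 8.34 TPM.

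Copg2, a coat protein gene that overlaps Mest on the opposite strand, rose in PGCLC with it in 5 of the 8 lines: Ovol2KO (1.20 ± 0.13), TKO (2.06 ± 0.13), Cdh1-Tg (1.33 ± 0.13), Ovol2a/2b-Tg (1.35 ± 0.13) and Ovol2b-Tg (1.93 ± 0.13), with adjusted p of at most 7.8e-06. No source used here gives the strand setting of the counting, so reads of Mest and Copg2 cannot be told apart with certainty. Dlk1, a Notch-like ligand of another imprinted domain, rose in the same 5 lines and in Ovol2a-Tg. It went from 7.53 ± 1.4 TPM (SD, n = 2) in WT to 166 ± 19 TPM in Ovol2KO, 175 ± 4.7 TPM in TKO, 39.3 ± 24 TPM in Ovol2a-Tg, 109 ± 0.26 TPM in Ovol2b-Tg, 29.1 ± 6.6 TPM in Ovol2a/2b-Tg and 164 ± 8.7 TPM in Cdh1-Tg. Its log2 fold changes were 1.81 to 4.37 (adjusted p at most 0.0021), and it fell in Ovol3KO by 1.28 ± 0.37 (adjusted p = 0.013).

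Marker sums of other cell types also differed from WT in PGCLC, though not always in the direction of Mest or Igf2. In Ovol3KO, Mest was above WT while the fibroblast and mesoderm sums were below it. In Ovol2a/2b-Tg, Mest and Igf2 were above WT while the mesoderm sum was below it. Of the 7 mesoderm markers, however, 4 were called higher and 1 lower there, so that sum does not stand for most of the list. In bulk RNA, fewer cells of a type and less RNA per cell cannot be told apart. The summed TPM of 8 fibroblast markers in PGCLC was 19.2 to 27 in WT, 105 to 114 in Ovol2KO, 269 to 281 in TKO, 80.4 to 147 in Ovol2a-Tg, 256 to 279 in Cdh1-Tg, 113 to 128 in Ovol2a/2b-Tg and 170 to 219 in Ovol2b-Tg. It was 10.6 to 11.7 in Ovol3KO and 19 to 31.1 in Ovol1KO. Lum and Postn were at 0 in both WT libraries, and Dcn was at 0 in Ovol2KO and TKO. These lists were written with earlier results of the libraries known. The 7 mesoderm markers summed to 1407 to 1424 TPM in WT, 2040 to 2235 in Ovol2KO, 2203 to 2275 in TKO and 61.9 to 159 in Ovol3KO. They summed to 1429 to 1621 in Ovol2a-Tg, 2103 to 2148 in Ovol2b-Tg, 1001 to 1112 in Ovol2a/2b-Tg, 1728 to 1774 in Cdh1-Tg and 899 to 1332 in Ovol1KO.

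The 7 trophoblast markers summed to 353 to 421 TPM in WT PGCLC, 1586 to 1821 in Ovol2KO, 1992 to 2145 in TKO, 698 to 1887 in the transgenic lines and 53.8 to 64.3 in Ovol3KO. Most of that sum was Hand1 and Cdx2, which early mesoderm also expresses, and the trophoblast gene Elf5 was at 0 in both libraries of WT, Ovol2KO, TKO and all Ovol2 transgenic lines. The 6 PGCLC markers summed to 158 to 164 TPM in WT, 63.4 to 114 TPM in Ovol2KO, TKO and the transgenic lines, 205 to 243 TPM in Ovol1KO and 347 to 360 TPM in Ovol3KO. The 7 endoderm markers summed to 19.7 to 29.8 TPM in WT PGCLC, 44.5 to 48.9 TPM in Ovol2KO, 62.7 to 69.0 TPM in TKO, 27.8 to 70.0 TPM in the transgenic lines, 12.7 to 18.2 TPM in Ovol1KO and 3.82 to 5.55 TPM in Ovol3KO, with Afp, Ttr and Apoa1 at 0 in both libraries of WT, Ovol1KO, TKO and Ovol2b-Tg. The 5 neural markers summed to 55.9 to 57.1 TPM in WT, 142 to 160 TPM in Ovol3KO and 46.6 to 82.7 TPM in the other lines, and the 6 naive markers to 209 to 216 TPM in WT, 460 to 503 TPM in Ovol3KO and 124 to 302 TPM in the others. The part of these cell populations in the values of Mest, Igf2, Dlk1, Peg10 and Cdkn1c in PGCLC was not tested.

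**Figure D5:**
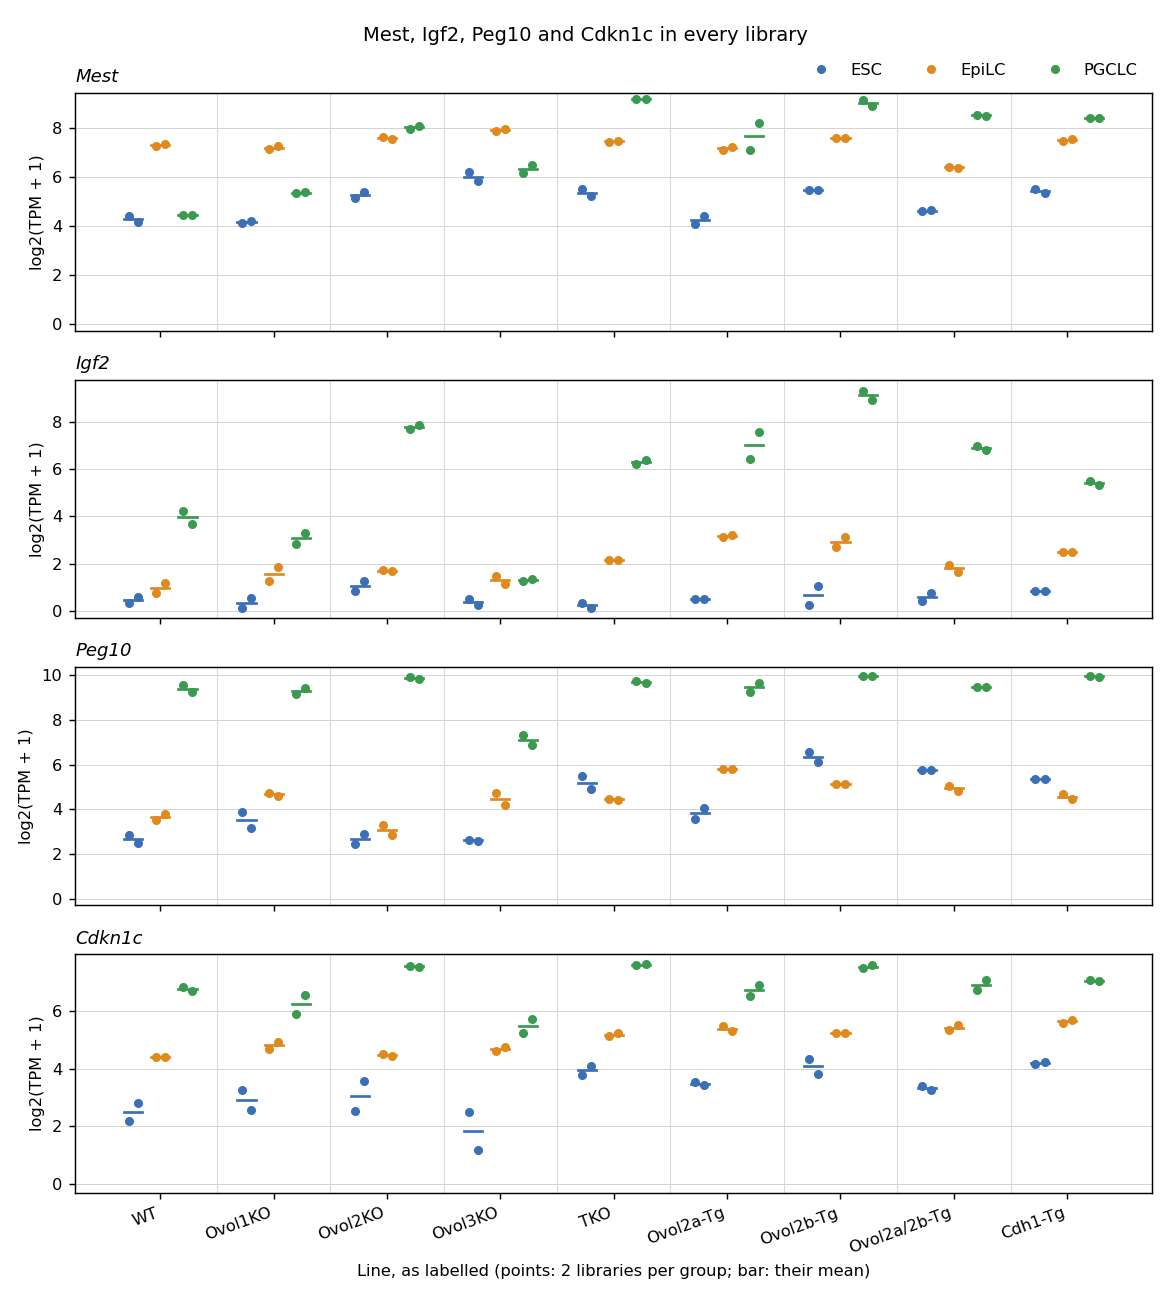
Expression of Mest, Igf2, Peg10 and Cdkn1c, as log2(TPM + 1) on the vertical axis, in the 9 lines on the horizontal axis, with 1 point per library, a bar at the mean and a colour for each stage. Mest and Igf2 as PGCLC stand above WT in Ovol2KO, TKO and the 4 transgenic lines, Igf2 and Peg10 as PGCLC stand below WT in Ovol3KO, and Peg10 as ESC stands above WT in TKO and the transgenic lines.

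Peg10 was higher than WT as ESC in TKO and in all 4 transgenic lines. WT ESC held 6.31 and 4.58 TPM, TKO 43.4 and 28.7 TPM, Ovol2a-Tg 10.7 and 15.9 TPM, Ovol2b-Tg 93.1 and 68.7 TPM, Ovol2a/2b-Tg 53.6 and 53.6 TPM and Cdh1-Tg 40.6 and 40.5 TPM. None of these libraries overlapped WT, and the log2 fold changes were 1.14 to 3.66. Ovol1KO, at 13.8 and 8 TPM, was above WT by 0.85 ± 0.26. The lines labelled Ovol2KO and Ovol3KO, at 4.48 to 6.47 TPM, overlapped WT. Sgce, the neighbour of Peg10, rose in ESC of the same 5 lines, from 1.5 ± 1.0 TPM (SD, n = 2) in WT to between 4.43 and 7.80 TPM, by log2 fold changes of 1.18 to 1.88 (adjusted p at most 0.0051). Peg10 in EpiLC stayed above WT in all 5, at 20.5 to 54.6 TPM against 10.4 and 12.9 TPM, and was past the thresholds in the 3 Ovol2 transgenic lines. It was above WT in EpiLC of Ovol1KO as well, at 25.7 and 23.1 TPM and past the thresholds (1.01 ± 0.17), and of Ovol3KO, at 25.8 and 17.4 TPM and not past them (0.82 ± 0.17).

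In PGCLC, Peg10 was 614 to 1010 TPM in Ovol2KO, TKO and the transgenic lines, near WT or above it. In Ovol3KO it was 157 and 116 TPM, below WT by 2.31 ± 0.14. Sgce fell there as well, by 1.58 ± 0.16 (adjusted p = 2.0e-06), and so did Asb4, a gene of the same domain that encodes an ankyrin repeat protein, by 1.42 ± 0.23 (adjusted p = 0.00012).

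Cdkn1c was past the thresholds above WT in ESC of TKO (1.44 ± 0.39), Ovol2b-Tg (1.58 ± 0.39) and Cdh1-Tg (1.70 ± 0.39), at 12.9 to 19.3 TPM against 3.55 and 6.08 TPM. As EpiLC, WT held 20.4 and 20 TPM, and Cdkn1c was past the thresholds in Ovol2a/2b-Tg (39.7 and 44.3 TPM, 1.02 ± 0.10) and Cdh1-Tg (47.3 and 50.5 TPM, 1.23 ± 0.10). Just short of the fold threshold were Ovol2a-Tg (43.6 and 38.5 TPM, 0.98 ± 0.10), Ovol2b-Tg (36.3 and 36.8 TPM, 0.82 ± 0.10) and TKO (34.1 and 36.7 TPM, 0.78 ± 0.10), so no EpiLC library of these 5 lines overlapped WT. As PGCLC it was 113 and 102 TPM in WT and 36.3 and 51.5 TPM in Ovol3KO (-1.29 ± 0.19). Ovol2KO (186 and 185 TPM, 0.79 ± 0.19), TKO (191 and 198 TPM, 0.85 ± 0.19) and Ovol2b-Tg (178 and 191 TPM, 0.77 ± 0.19) lay above WT without passing the thresholds. Phlda2, in the same domain, stood at 469 ± 59 TPM (SD, n = 2) in WT PGCLC. It rose in Ovol2KO by 1.43 ± 0.22 (adjusted p = 0.00053) in TKO by 1.45 ± 0.22 (adjusted p = 0.00034) and in Ovol2b-Tg by 1.20 ± 0.22 (adjusted p = 0.0016), and fell in Ovol3KO by 1.34 ± 0.22 (adjusted p = 0.00041).

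In ESC, markers of the next stage went with Peg10 and Cdkn1c in some lines but not in others. The 4 EpiLC markers summed to 97.0 to 97.8 TPM in WT ESC, 169 to 205 TPM in TKO, 141 to 152 TPM in Ovol2b-Tg, 329 to 336 TPM in Cdh1-Tg and 115 to 119 TPM in Ovol2a/2b-Tg. They summed to 74.9 to 90.1 TPM in Ovol2a-Tg, where Peg10 was also high, and to 138 to 144 TPM in Ovol2KO, where Peg10 overlapped WT. None of the 4 was at 0 in both libraries of a line. Their part in the ESC values was not tested.

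Few Peg3 values and no Impact value were past the thresholds against WT. Peg3 was past the thresholds in Ovol3KO EpiLC (157 and 110 TPM against 64.7 and 62.3 TPM, 1.04 ± 0.12), Ovol2a/2b-Tg PGCLC (577 and 666 TPM against 308 and 259 TPM, 1.13 ± 0.12) and Cdh1-Tg ESC (97.0 and 88.4 TPM against 61.1 and 34.0 TPM, 1.01 ± 0.29). In Ovol3KO PGCLC, Peg3 (145 to 173 TPM) lay below both WT libraries without passing the thresholds. Impact passed the thresholds in no comparison between lines. It ran from 42.4 to 74.3 TPM in ESC, 27.2 to 42.8 TPM in EpiLC and 78.0 to 137 TPM in PGCLC over all 9 lines, and its log2 fold changes against WT from -0.43 to 0.58.

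Of the 60 other imprinted genes tested, 1 was called in 1 direction at all 3 stages of a line, Ndn, which rose in Cdh1-Tg. Ndn went from 3.66 ± 0.41 to 9.15 ± 0.39 TPM in ESC, from 10.7 ± 0.13 to 32.0 ± 0.55 TPM in EpiLC and from 28.5 ± 5.0 to 112 ± 6.9 TPM in PGCLC (SD, n = 2 each). The log2 fold changes were 1.13 ± 0.35, 1.5 ± 0.10 and 1.94 ± 0.17 (limma adjusted p = 0.029, 3.6e-08 and 6.6e-07). Leaving out either library of WT or of Cdh1-Tg took the ESC value from past the thresholds. Its neighbour Magel2 rose in that line as EpiLC by 1.74 ± 0.16 (adjusted p = 7.4e-07) and as PGCLC by 1.07 ± 0.28 (adjusted p = 0.0065), while Snrpn differed by 0.42 ± 0.13 and -0.35 ± 0.13.

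Counts of the other imprinted genes called against WT were 0 to 9 of 60 in ESC, 0 to 12 in EpiLC and 0 to 15 in PGCLC, beside the background shares above. Their median log2 fold change was -0.05 to 0.10 in ESC, 0.00 to 0.24 in EpiLC and -0.22 to 0.39 in PGCLC. The medians over all genes were -0.03 to 0.02, 0.00 to 0.09 and -0.12 to 0.06. In Ovol1KO limma called 0, 1 and 0, the 1 being Pdk4, a mitochondrial kinase (1.15 ± 0.20, adjusted p = 0.0063). At an unadjusted p under 0.05 there were 4, 11 and 14, and limma-voom called 0, 1 and 0.

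In ESC, Ovol2KO had 0 rises and 4 falls, with Atp10a, Ampd3 and Slc22a18, a membrane transporter, at -1.25 to -1.08. Ovol3KO had 2 falls, Mkrn3 (-1.36 ± 0.24) and the amino acid transporter Slc38a4 (-1.02 ± 0.09). TKO had 1 rise, Sgce, and 2 falls, Plagl1 (-1.28 ± 0.19) and Ampd3 (-1.12 ± 0.19), which became 2 and 2 with quantile scaling. Ovol2a-Tg had 5 rises and 4 falls, led by Sgce (1.86 ± 0.27), Slc38a4 (1.84 ± 0.09) and Plagl1 (-1.85 ± 0.19). Ovol2b-Tg had 3 rises, Sgce (1.37 ± 0.27), the polycomb-related gene Sfmbt2 (1.29 ± 0.18) and Gpr1 (1.19 ± 0.31). Ovol2a/2b-Tg had 2 rises, Sgce (1.88 ± 0.27) and Slc38a4 (1.26 ± 0.09), and 1 fall, Ddc. Cdh1-Tg had 2 rises and 5 falls (4 and 4 with quantile scaling), led by Plagl1 (-1.69 ± 0.19), Ampd3 (-1.57 ± 0.19) and Slc22a18 (-1.26 ± 0.32). The limma adjusted p was at most 0.034 for these genes.

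In EpiLC, limma called 0 of the 60 in Ovol2KO, TKO, Ovol2a-Tg and Ovol2b-Tg. At an unadjusted p under 0.05 there were 16, 20, 20 and 22, and limma-voom on recovered reads called 0, 2, 4 and 2. Ovol3KO had 3 rises and 3 falls, led by Dcn (-1.56 ± 0.17), Peg12 (-1.45 ± 0.25) and Pdk4 (1.30 ± 0.20). Ovol2a/2b-Tg had 2 rises, Dlk1 (1.52 ± 0.20) and Ago2, of the RNA silencing machinery (1.09 ± 0.14), and 1 fall, Slc22a18 (-1.26 ± 0.34). Cdh1-Tg had 8 rises and 4 falls (4 and 4 with quantile scaling), led by Ascl2, a trophoblast transcription factor (-1.86 ± 0.24), Gab1 (-1.79 ± 0.06) and Magel2. The adjusted p was at most 0.0089.

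In PGCLC, Ovol2KO had 5 rises and 3 falls, led by Dlk1 (4.29 ± 0.37), Sfmbt2 (-1.92 ± 0.27) and Cobl (-1.83 ± 0.24). Ovol3KO had 5 rises and 8 falls, led by Gab1 (2.21 ± 0.14), Jade1, of a histone acetylation complex (2.15 ± 0.16), and Sgce. TKO had 11 rises and 4 falls, led by Dlk1 (4.37 ± 0.37), Cobl (-2.48 ± 0.24) and Asb4 (2.32 ± 0.23). Ovol2a-Tg had 3 rises and 1 fall, led by Dlk1 (2.11 ± 0.37), Asb4 (1.27 ± 0.23) and Cobl (-1.26 ± 0.24). Ovol2b-Tg had 9 rises and 2 falls, led by Dlk1 (3.70 ± 0.37), Copg2 and Asb4 (1.85 ± 0.23). Ovol2a/2b-Tg had 8 rises and 2 falls, led by Cobl, Dlk1 (1.81 ± 0.37) and the homeobox gene Dlx5 (1.74 ± 0.32). Cdh1-Tg had 8 rises and 2 falls, led by Dlk1 (4.28 ± 0.37), Cobl (-2.60 ± 0.24) and Ndn. The adjusted p was at most 0.0021.

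Between TKO and Ovol2KO, 5, 0 and 5 of the 60 were called by limma in ESC, EpiLC and PGCLC (21, 14 and 18 at an unadjusted p under 0.05, and 9, 3 and 6 by limma-voom). The largest in ESC were Sgce (2.42 ± 0.27), Ndn (1.76 ± 0.35) and Zdbf2 (-1.34 ± 0.32). Those in PGCLC were Magel2 (2.07 ± 0.28), Peg12 (1.97 ± 0.31) and Asb4 (1.80 ± 0.23), all higher in TKO. Magel2 and Peg12 belong to the domain of Snrpn. The adjusted p was at most 0.011.

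Genes that keep or set imprints were followed beside the losses. Of 13 tested, Ovol2KO had 1 called in ESC (higher), 2 in EpiLC (lower) and 5 in PGCLC (1 higher, 4 lower), beside 3.36%, 1.42% and 8.18% of all genes. Ovol3KO had 1, 2 and 6, all higher, beside 1.85%, 2.85% and 12.8%. Cdh1-Tg had 3, 3 and 4 (3 higher, then 1 higher and 2 lower, then 1 higher and 3 lower), beside 6.4%, 6.38% and 9.86%. TKO had 2 higher in ESC (4.08%), and 1 higher and 2 lower in PGCLC (10.5%). In PGCLC of the other lines 1 or 2 were called. Dnmt1, Uhrf1, Trim28 and Zfp445 passed the thresholds in no comparison of a line with WT. In the Ovol2KO-labelled line as ESC, where Snrpn had 0 reads, Zfp57 was 368 to 407 TPM against 242 to 300 TPM in WT, Trim28 was 1725 to 1740 TPM against 1251 to 1277 TPM, and Dnmt1 was 153 to 196 TPM against 171 to 197 TPM. Dnmt3l, a cofactor of new DNA methylation, rose there by 2.11 ± 0.16 (adjusted p = 9.9e-07), and it rose in ESC of Ovol3KO, TKO and Cdh1-Tg as well, by 1.58 to 2.44. In EpiLC of Ovol2KO, Dnmt3l fell from 84.0 to 38.7 TPM (-1.09 ± 0.11, adjusted p = 1.2e-05) and Dppa3 from 9.07 to 1.80 TPM (-1.90 ± 0.41, adjusted p = 0.0090). In its PGCLC, Dnmt3l (-1.73 ± 0.26), the methyltransferase Dnmt3b (-1.01 ± 0.13) and Tet1 (-1.07 ± 0.17), which oxidises methylated cytosine, fell, and the related Tet3 rose (1.16 ± 0.15, adjusted p at most 0.00029 for these 4). In PGCLC of Ovol3KO, Dnmt3l (4.24 ± 0.26), Tet2 (2.27 ± 0.24), Tet1 (1.51 ± 0.17) and Dnmt3b (1.05 ± 0.13) rose (adjusted p at most 9.8e-06). Zfp57 rose in Ovol3KO as EpiLC (1.03 ± 0.15, adjusted p = 8.8e-05) and as PGCLC (1.89 ± 0.18, adjusted p = 7.2e-07).

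Dppa3, which shields maternal imprints in the egg and also marks early germ cells, stood at 18 to 20.4 TPM in WT PGCLC. It fell to 2.09 to 2.69 TPM in Ovol2KO (-2.58 ± 0.26), 0.671 to 0.947 TPM in TKO (-3.48 ± 0.26), 2.29 to 3.53 TPM in Ovol2b-Tg (-2.38 ± 0.26), 7.67 to 9.33 TPM in Ovol2a/2b-Tg (-1.09 ± 0.26) and 0.195 to 0.228 TPM in Cdh1-Tg (-4.06 ± 0.26). It rose in Ovol3KO to 173 to 183 TPM (3.15 ± 0.26) and in Ovol1KO to 32.6 to 68.5 TPM (1.26 ± 0.26). The adjusted p was at most 0.022 for these. Dppa3 is 1 of the PGCLC markers summed above.

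Over the 27 group means on the log2(TPM + 1) scale, the gene most like Snrpn was Polr2h, a subunit shared by the RNA polymerases, at a Pearson r of 0.63, followed by Pkp2 (0.61), Erdr1 (0.60) and Cpox (0.60). Snurf was most like Polr2h as well (0.63). For Nnat it was Nfkbid (0.75), for Grb10 Dcakd (0.83) and for Mest Vasn (0.90). The other members had closer matches: Igf2 with Pmp22 (0.97), Peg3 with Wnt4 (0.96), Peg10 with Erap1 (0.96), Impact with Vwa5a (0.97) and Cdkn1c with Colec12 (0.97). The points share stages and lines, so these values describe likeness over these groups.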

How the data were processed

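Poly(A) RNA of 54 libraries (9 lines, 3 stages, 2 libraries a group) was prepared with RNeasy Micro and NEBNext Ultra Directional kits and 12 PCR cycles, per the labels' protocols. The authors used HISAT2, featureCounts and edgeR with mm10, per the submitters' processing notes. The sources used here give no versions, annotation or strand setting. Expression was deposited as TPM, which give shares of mRNA and not amounts per cell. All columns of single samples were used. For Ovol2b-Tg EpiLC, 2 columns fix the group but not the replicate number. The labels name some transgenic lines in other styles, and no label names a batch.

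Here, limma 3.58.1 in R 4.3.3 was run on log2(TPM + 1) with trend and robust settings, on genes with at least 1 TPM in at least 2 libraries. Lines were compared within a stage (18 libraries, 9 df for residuals). Comparisons of WT stages, and of the difference between a line's PGCLC and ESC effects, used all 54 libraries (27 df). Whole reads were recovered from the TPM of all 17973 genes above 0 (within 0.001 of a read), giving 2.16 to 26.7 M reads per library. The fit was tested on simulated data. With 2 libraries a group, p-values measure only the spread between libraries, which may be technical.

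The members and gene lists were chosen with earlier results of these data known. Named were all members, other imprinted genes called at all 3 stages of a line, the 3 largest called changes of them per line and stage (3 rises and 3 falls for WT stages), the regulators, the genes most like the members by Pearson r, and Ovol1, Ovol2, Ovol3 and Cdh1. Blcap, Copg2, Magel2, Peg12 and other domain partners were also named by position. Listed genes with no row in the table, such as H19, Meg3 and Kcnq1ot1, were not analysed here. Promoters came from RefSeq. Windows of 7 members were used, with Impact, on chromosome 18, left out. Alternatives covered the pseudocount, filter, scaling, samples in the fit, a replicate block, the fold threshold, left-out libraries and, chosen after seeing the data, limma-voom on the recovered reads. A gene among those most like Snrpn is not reported here.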

Additional observations from a re-analysis of the deposited data

Results flagged for a closer look

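In the line labelled Ovol2KO, Phlda2 was lower than WT in ESC (-1.08 ± 0.17, log2 fold change ± SE) and higher in PGCLC (1.43 ± 0.22). The difference, PGCLC minus ESC, was 2.51 ± 0.25, with both libraries of each group on the stated side of WT. Slc22a18, beside Phlda2 in the Cdkn1c domain, did the same (-1.08 ± 0.32 and 1.13 ± 0.29), with a difference of 2.21 ± 0.49. Both were picked because they were called in opposite directions at those stages, which fixes a large difference, so no p is given. In limma's test of that difference 14 of the 60 other imprinted genes and 11.4% of all genes were called in this line. Cdkn1c itself was not past the thresholds at either stage of that line (0.53 ± 0.39 and 0.79 ± 0.19).

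Grb10 in the same line was below WT in ESC (-1.66 ± 0.13) and above it in PGCLC (1.0 ± 0.07), in both libraries each time. This difference was not tested, because the gene was chosen from these values.

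Sfmbt2 in Ovol2b-Tg was higher than WT in ESC (1.29 ± 0.18) and lower in PGCLC (-1.30 ± 0.27), a difference of -2.59 ± 0.31. It was picked in the same way, and in that line 11 of the 60 and 13.5% of all genes were called for the difference.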

How the results depend on the processing

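In Ovol2KO, 2 to 3 members were held at all 3 stages under every alternative run. Between TKO and Ovol2KO the 3 members became 2 with no filter on low TPM and without replicate 2 of either line. Members called along the WT path numbered 6 to 8 in the first step and 6 to 9 in the second. The loss of Nnat at all 3 stages of TKO did not hold with no filter on low TPM (0 members). Leaving out single libraries gave 0 to 1 members there. Ndn in Cdh1-Tg did not hold with a pseudocount of 0.1 or with no filter (0 genes each), nor when any single library of WT or Cdh1-Tg was left out (0 to 0). For these the cause was not tested.

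Other counts of genes held at all 3 stages also moved. With all 54 libraries in the fit, 1 member was held in Ovol2a-Tg (0 before), as with limma-voom on recovered reads, which also gave 2 other imprinted genes in Cdh1-Tg. A pseudocount of 0.1 gave 1 other imprinted gene in Ovol2b-Tg. With no fold threshold, which admits smaller changes, the members held were 2 in Ovol3KO, 2 in TKO, 4 in Ovol2b-Tg, 2 in Ovol2a/2b-Tg and 2 in Cdh1-Tg. The other imprinted genes held were then 4 in Ovol3KO, 1 in Ovol2a-Tg, 2 in Ovol2b-Tg, 1 in Ovol2a/2b-Tg, 5 in Cdh1-Tg and 2 between TKO and Ovol2KO.

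No called fold change of a member or named gene changed sign under any alternative. The replicate block changed none of the 20 counts: 6 members in each WT step, 2 in Ovol2KO, 1 in TKO and 3 between TKO and Ovol2KO. Replicate numbers did not pair the libraries, as deviations of equal number correlated at -0.21 to 0.20 between groups of a stage. Treating the Ovol2b-Tg EpiLC pair as 1 sample moved no count. The counts over all genes behind the background shares moved by over 1.5 times in 9 of 29 comparisons with a pseudocount of 0.1, in 16 with limma-voom, in 3 with no filter, in 2 with all libraries in the fit and in all 29 with no fold threshold. Quantile scaling moved the share of higher calls by over 10 points in 13 comparisons. Leaving out WT replicate 2 moved 8 of 26 such counts by over 1.5 times (to between 0.365 and 2.3 times), 6 of them in EpiLC, and WT replicate 1 moved 2 of 26. The PGCLC calls of Ovol1KO went from 96 to 13 without its replicate 1, 489 without its replicate 2, 18 without WT replicate 1 and 35 without WT replicate 2, its EpiLC calls from 70 to 38 without WT replicate 1 and 161 without WT replicate 2, and its ESC calls from 78 to 133, 49 and 45 without its replicate 1, its replicate 2 and WT replicate 2. One comparison each moved without Ovol2KO replicate 1 (EpiLC TKO against Ovol2KO, 77 to 122) or 2 (PGCLC TKO against Ovol2KO, 142 to 79), TKO replicate 1 or 2 (EpiLC TKO against Ovol2KO, 77 to 118 and 51), Ovol2a-Tg replicate 2 (PGCLC, 494 to 290) and Ovol3KO replicate 2 (EpiLC, 411 to 637).

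For the other imprinted genes, limma-voom raised the ESC counts of Cdh1-Tg from 7 to 12, Ovol2b-Tg from 3 to 8 and Ovol2a/2b-Tg from 3 to 7, and the EpiLC count of Ovol3KO from 6 to 12, beside the values given with the counts of 0. A pseudocount of 0.1 raised ESC Ovol2KO from 4 to 7, EpiLC Ovol2a/2b-Tg from 3 to 8, EpiLC Ovol2a-Tg from 0 to 5, EpiLC Ovol2b-Tg from 0 to 3, EpiLC Ovol2KO and EpiLC TKO against Ovol2KO from 0 to 2 each, ESC Ovol2b-Tg from 3 to 7, ESC Cdh1-Tg from 7 to 11, EpiLC Cdh1-Tg from 12 to 18 and PGCLC Ovol2KO from 8 to 14. Without Ovol2a-Tg replicate 1 its ESC count went from 9 to 5, and without WT replicate 1 those of EpiLC Ovol2a/2b-Tg, ESC Ovol3KO and EpiLC TKO went from 3 to 1, 2 to 4 and 0 to 1. Without WT replicate 2, EpiLC Ovol2a/2b-Tg went from 3 to 5 and EpiLC Ovol2KO and TKO from 0 to 1 each. Without TKO replicate 1, ESC TKO went from 3 to 5 and EpiLC TKO from 0 to 2, against WT as against Ovol2KO. Without TKO replicate 2 those EpiLC counts went to 1. Counts went from 3 to 5 in ESC and EpiLC of Ovol2a/2b-Tg without its replicate 2 and in ESC of Ovol2b-Tg without its replicate 2, and from 0 to 2 in PGCLC of Ovol1KO without its replicate 2. With no fold threshold all counts above 0 rose by over 1.5 times.

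Low depth limits Nnat in ESC most: WT held 27 reads and TKO 5. TPM cannot show total RNA per cell, allele or DNA methylation.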
